A study of Mus musculus with 2 samples.

Results

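Chrna1, Chrnb1, Chrnd, Chrne and Chrng, which encode the muscle subunits of the nicotinic acetylcholine receptor, were described here together with Ache, Colq, Musk and Scn4a, 9 genes that act at or beside the neuromuscular junction. They were chosen by symbol, and all 9 were found among the 19430 genes of the deposited count tables. The data are Visium spatial transcriptomes of 2 sections through a single paraffin block that held the fractured distal tibia of 1 control mouse and of 1 Nf1Postn mouse side by side, collected 10 days after fracture. The control carried Nf1 +/flox without cre, and the Nf1Postn mouse carried Postn-cre;Nf1 flox/-, so that every cell of the latter lacked a functional Nf1 allele and cre removed the other where the Postn (periostin) promoter was or had been active, which in a callus is chiefly the periosteum and its descendants. The mice were female littermates, 8 weeks old at surgery, and the fractures of both were held with an intramedullary pin. The labels call the sections biological replicates, but both come from the same block, so the spread between them is that of 2 levels of the same tissue and each genotype rests on 1 animal. No difference between genotypes could therefore be tested, and no p-value is given.

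At the neuromuscular junction, a motor axon releases acetylcholine onto a muscle fiber whose membrane is packed with receptors. The receptor is a pentamer in which the alpha, beta and delta subunits are shared by all forms, whereas the gamma subunit of the fetal form is replaced by the epsilon subunit in innervated adult fibers. The nuclei that lie under the synapse transcribe these genes far more than the nuclei along the rest of the fiber, and after loss of the nerve, or in regenerating fibers, the shared subunits and the gamma subunit are switched on along the whole fiber. Acetylcholinesterase, the product of Ache, is anchored in the synaptic cleft by the collagen tail encoded by Colq. Musk is the receptor tyrosine kinase that, through Lrp4 and the nerve-derived proteoglycan agrin, gathers the receptors, and Scn4a encodes the voltage-gated sodium channel of adult skeletal muscle that turns the endplate potential into an action potential.

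Each capture spot gathers RNA from a small disc of tissue that holds several cells, so a spot is a region and not a cell. Counts are unique molecular identifiers (UMIs), and levels are counts per 1e+06 UMIs (CPM) summed over the spots of a group. Intervals in brackets or after "95% interval" are exact Poisson intervals for a level, exact conditional intervals for a ratio and exact binomial intervals for a share, and all of them cover counting error only. Since each gene is read by its own probes, levels were compared between groups of spots but not between genes. The muscle content of a spot was the percentage of its UMIs that came from 22 genes of mature fibers and 5 detected genes of embryonic or regenerating fibers, none of them among the 9 genes. Spots with at least 10% were called muscle-rich and spots with under 0.5% muscle-poor. The labelled tissue, a fracture callus, held muscle in all groups, and 2105 of the 6375 spots with a genotype (33.0%) were muscle-rich, with 20.4% of the UMIs. They were unevenly shared, with 157 of 1700 control spots in section 1 and 197 of 1778 in section 2, but 672 of 1341 and 1079 of 1556 Nf1Postn spots. Median depth in muscle-rich spots was 4577 and 3642.5 UMIs in the control and 1714 and 3120.5 in Nf1Postn. The sections shared 2711 spot barcodes, which in this assay mark positions of the array and not cells. A gene was called higher or lower in a group of spots where it differed at least 2-fold the same way in both sections and had at least 20 UMIs in the groups compared, with a lower side of under 3 UMIs set to 3.

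Over both sections, Scn4a gave 3047 UMIs, Chrnb1 847, Chrne 784, Ache 758, Musk 688, Chrna1 539, Chrnd 269, Chrng 139 and Colq 99. Between 49.6% (Chrng) and 78.1% (Chrne) of them lay in muscle-rich spots. In mm39, as the tables give the genes, Chrnd (ENSMUSG00000026251, chr1:87118329-87127793) and Chrng (ENSMUSG00000026253, chr1:87132379-87140417) lie close together on chromosome 1, and Chrna1 (ENSMUSG00000027107, chr2:73393559-73410683) lies on chromosome 2. Chromosome 11 carries Chrnb1 (ENSMUSG00000041189, chr11:69674862-69686770), Chrne (ENSMUSG00000014609, chr11:70505709-70510043) and Scn4a (ENSMUSG00000001027, chr11:106209418-106244115). Musk (ENSMUSG00000057280) is at chr4:58285960-58374304, Ache (ENSMUSG00000023328) at chr5:137285781-137292729 and Colq (ENSMUSG00000057606) at chr14:31245039-31313301. Counts in a spot were low for all 9, with a maximum of 20 UMIs for Chrne, 17 for Chrna1 and 4 for Chrng and Colq.

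The receptor subunits were higher in muscle-rich than in muscle-poor spots. Chrna1, the alpha subunit that binds acetylcholine, was measured at 57.1 CPM in muscle-rich spots of section 1 and at 46.7 CPM in section 2, and gave no UMI in any of the 188 muscle-poor spots. Chrnb1, the beta subunit, was at 76.7 and 74.1 CPM in muscle-rich spots against 4.42 and 4.34 CPM (12 UMIs and 1 UMI) in muscle-poor spots. Chrne, the epsilon subunit, was at 85.8 and 85.4 CPM against 3 UMIs in section 1 and 0 in section 2. Few or none of the UMIs of these 3 subunits thus lay in muscle-poor spots, although Chrnb1 kept a low level there. Of all their UMIs, 66.2% (Chrna1), 63.3% (Chrnb1) and 78.1% (Chrne) lay in muscle-rich spots. Most others lay in spots between the 2 limits. Chrnd, the delta subunit, was at 26.9 and 23.0 CPM and Chrng, the gamma subunit, at 10.0 and 9.46 CPM in muscle-rich spots, and neither gave a UMI in muscle-poor spots.

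Among the other genes, Ache was at 69.8 and 74.3 CPM in muscle-rich spots against 1 UMI in section 1 and 0 in section 2, and Musk at 56.1 and 63.8 CPM against 3 UMIs and 0. Scn4a was at 273 and 356 CPM against 3.69 and 4.34 CPM (10 UMIs and 1 UMI). Colq was at 7.30 and 7.05 CPM against 1 UMI and 0. By the 2-fold rule Chrna1, Chrnb1, Chrne, Ache, Musk and Scn4a were higher in muscle-rich spots, 6 of 9, beside 5.63% of the 12372 genes tested, and 0 of 9 were lower, beside 9.52%. Chrnd, Chrng and Colq did not pass because the muscle-poor spots of section 2 were only 13, in which 0 UMIs still allow up to 14.0 CPM in the control. The median log2 ratio of the 9 genes was 5.61 with zero counts set to 3 UMIs, against -0.17 over all genes tested. Of the 188 muscle-poor spots 179 were control, so genotype and muscle content cannot be told apart in the pooled contrast. Within the control alone the same 6 genes were called of 8 that could be. Within Nf1Postn alone, with 9 muscle-poor spots, only Scn4a was called of 9. No share over all genes is given within a genotype. The median log2 ratio of the members tested was 5.35 against -0.093 over all genes in the control, and 0.51 against -0.23 in Nf1Postn.

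**Figure D1:**
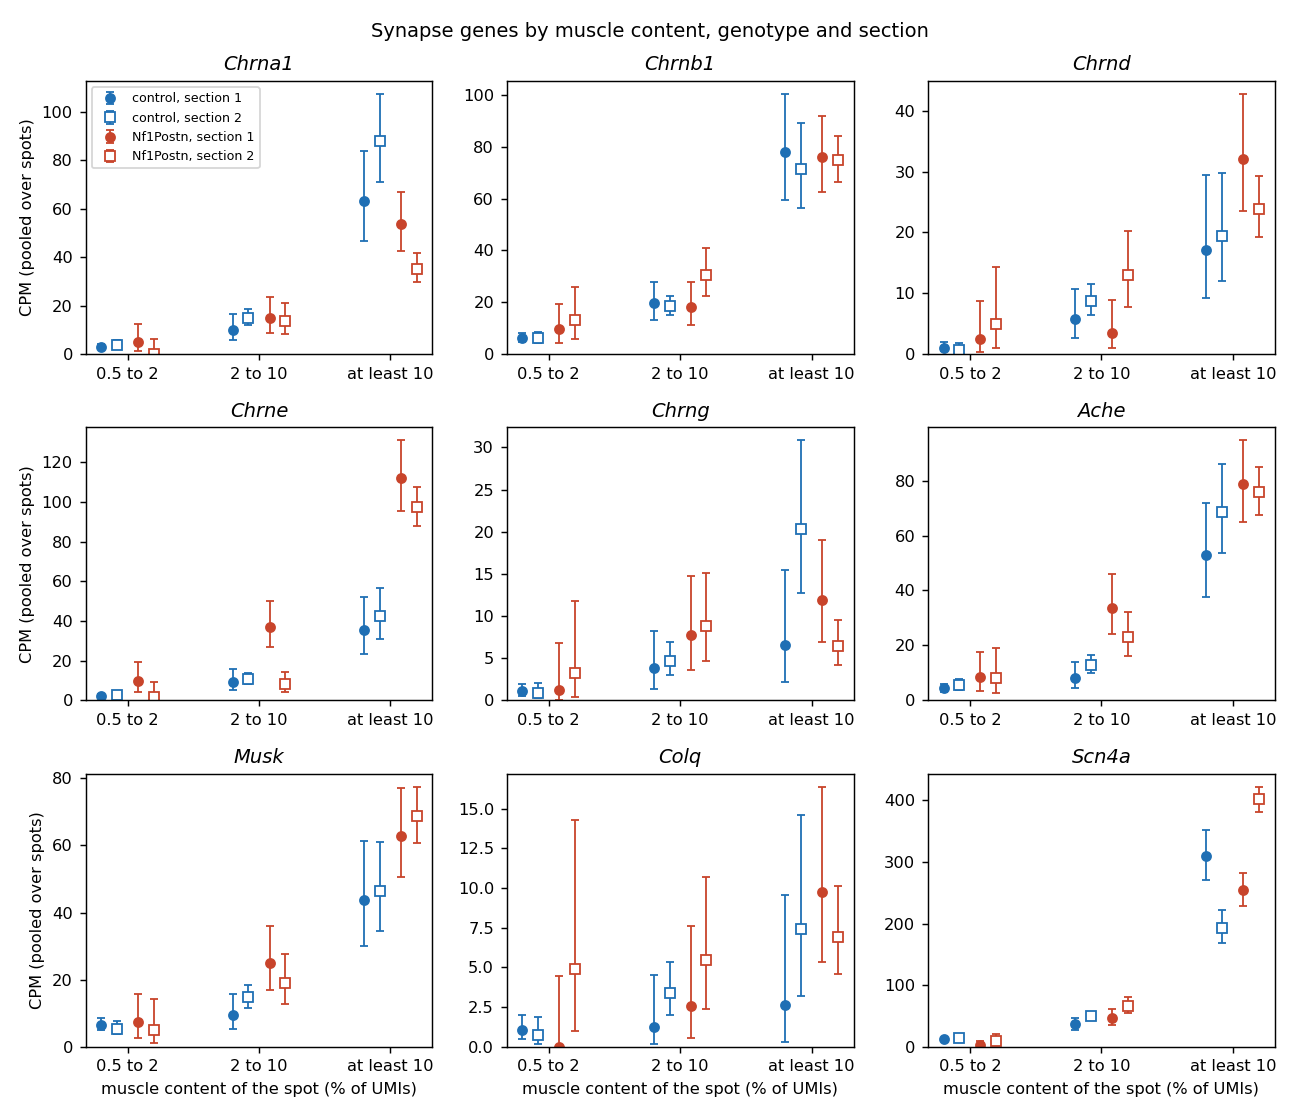
Level of each gene in CPM (vertical axis, from 0) by muscle content of the spots in percent of UMIs (horizontal axis), for control (blue) and Nf1Postn (red) in section 1 (filled circles) and section 2 (open squares), with bars for exact 95% Poisson intervals. All 9 genes were highest at 10% muscle or more in both genotypes apart from Chrng in section 2 of Nf1Postn, at 6.43 CPM against 8.85 CPM at 2 to 10%, and at that content the Nf1Postn points of Chrne stand above the control points by 3.15-fold and 2.28-fold.

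The other genes of the junction went both ways. Of a list of 15 further synapse genes, 14 could be tested and 3 were higher in muscle-rich spots. They were Ufsp1, a protease-family gene transcribed near the endplate, Etv5, an ETS-family transcription factor of subsynaptic nuclei, and Dtna, which encodes the dystrophin partner alpha-dystrobrevin. Ufsp1 was at 41.5 and 62.6 CPM in muscle-rich spots against 1.47 and 4.34 CPM in muscle-poor spots. Agrn, at 42.4 and 30.6 against 100 and 95.4 CPM, and Col13a1, at 61.6 and 41.9 against 132 and 143 CPM, were the 2 lower genes. Both are known to be made by many connective tissue cells as well as by nerve or muscle. Lrp4 was at 24.2 and 20.3 against 31.0 and 78.0 CPM, Rapsn, the scaffold that binds receptors inside the fiber, at 21.0 and 19.3 CPM against 2 UMIs and 0, and Dok7, the adaptor of Musk, at 24.2 and 20.3 CPM against 2 UMIs and 1 UMI.

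Of 10 genes that denervated or wasting muscle is known to induce, 9 could be tested, 4 were higher and 1 was lower. The higher genes were Myog, the myogenic factor that drives the receptor genes in denervated fibers, at 58.0 and 48.7 CPM against 3 UMIs and 0, the ubiquitin ligases Trim63, at 145 and 184 against 1.84 and 13.01 CPM, and Fbxo32, at 49.3 and 53.8 against 5.53 and 21.7 CPM, and the stress gene Gadd45a, at 77.6 and 77.3 against 22.5 and 8.67 CPM. Runx1, a transcription factor also used by cartilage and blood cells, was lower at 15.5 and 13.9 against 48.7 and 82.4 CPM. Ncam1, an adhesion molecule of denervated fibers, nerve and bone cells, was at 58.9 and 64.4 against 70.8 and 65.0 CPM. All 11 genes of excitation-contraction coupling, among them Ryr1 and Cacna1s, were higher in muscle-rich spots.

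Chrne was the most unevenly spread of the 9 genes within muscle. Of the 612 Chrne UMIs in muscle-rich spots, 48.2% came from 51 spots with at least 3 Chrne UMIs each, which were 2.42% of the muscle-rich spots. The variance of Chrne counts between muscle-rich spots, divided by the variance that Poisson counting at each spot's depth gives, was 2.95 in section 1 and 4.63 in section 2, a quantity that also grows with a gene's counts. The same quantity was 1.68 and 2.61 for Chrna1, 2.07 and 2.28 for Ache and 1.89 and 1.60 for Chrnd. It was 1.21 and 1.18 for Chrnb1, 1.05 and 1.55 for Musk, 1.55 and 1.68 for Scn4a, 1.03 and 1.09 for Rapsn and 0.93 and 1.10 for Dok7. Chrne, Chrna1, Ache, Chrnd and Scn4a thus varied more between spots than counting alone gives in both sections, and Chrnb1 and Rapsn little more.

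The Chrne-rich spots lay beside each other. In section 1, 9 of the 16 spots with at least 3 Chrne UMIs had another such spot among their 6 neighbors (56.2%, 95% interval 29.9 to 80.2%), against 44 of the other 813 muscle-rich spots (5.41%, 3.96 to 7.20%). In section 2 the shares were 22 of 35 (62.9%, 44.9 to 78.5%) and 118 of 1241 (9.51%, 7.93 to 11.3%). Spots with at least 3 UMIs of the other genes did not all do so. For Chrna1 the shares were 5 of 8 spots (62.5%) against 3.17% in section 1 but 0 of 12 against 4.43% in section 2, and for Ache 2 of 10 spots against 5.13% and 2 of 24 (8.33%) against 9.11%. Scn4a spots did so in both sections, at 38 of 64 (59.4%) against 20.5% and 208 of 251 (82.9%) against 47.5%. At a cut of 1 UMI, Chrna1 spots did so too, at 64.4% against 26.8% and 66.9% against 35.8%. So did Ache spots, at 57.7% against 35.6% and 74.5% against 55.6%. Adjacency was thus not particular to Chrne. These cuts on raw counts favor deep spots. In the Nf1Postn muscle of section 1, a strip of 5 rows held 11 of the 12 Chrne-rich spots and 53.4% of the Chrne UMIs with 14.1% of the muscle-rich spots. In section 2 a strip of 5 rows at nearly the same array rows held 18 of 32 and 40.2% with 18.9% of the spots. Along the rows the 2 strips did not coincide, their Chrne-rich spots lying at array columns 44 to 62 in section 1 and 81 to 125 in section 2. Whether they are 1 site of the tissue is not known. In the control, a strip of 5 rows at the opposite edge held all 4 Chrne-rich spots of section 1. In section 2 a strip of 5 rows at nearby array rows, but at other columns, held 3 of 5 spots with at least 3 Chrne UMIs. Of those 5 spots, 2 had under 10% muscle and were not counted among the 51. The control strips held 21.7% and 35.5% of the muscle-rich spots, and Chrne in their muscle-rich spots was at 104 CPM against 16.9 CPM elsewhere in section 1, but at 38.9 against 50.8 CPM in section 2. In Nf1Postn the levels were 194 against 75.7 CPM and 150.1 against 78.7 CPM, so the control of section 2 showed no such band. The rows of each strip were picked for their Chrne counts, and these shares are given as a description.

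**Figure D2:**
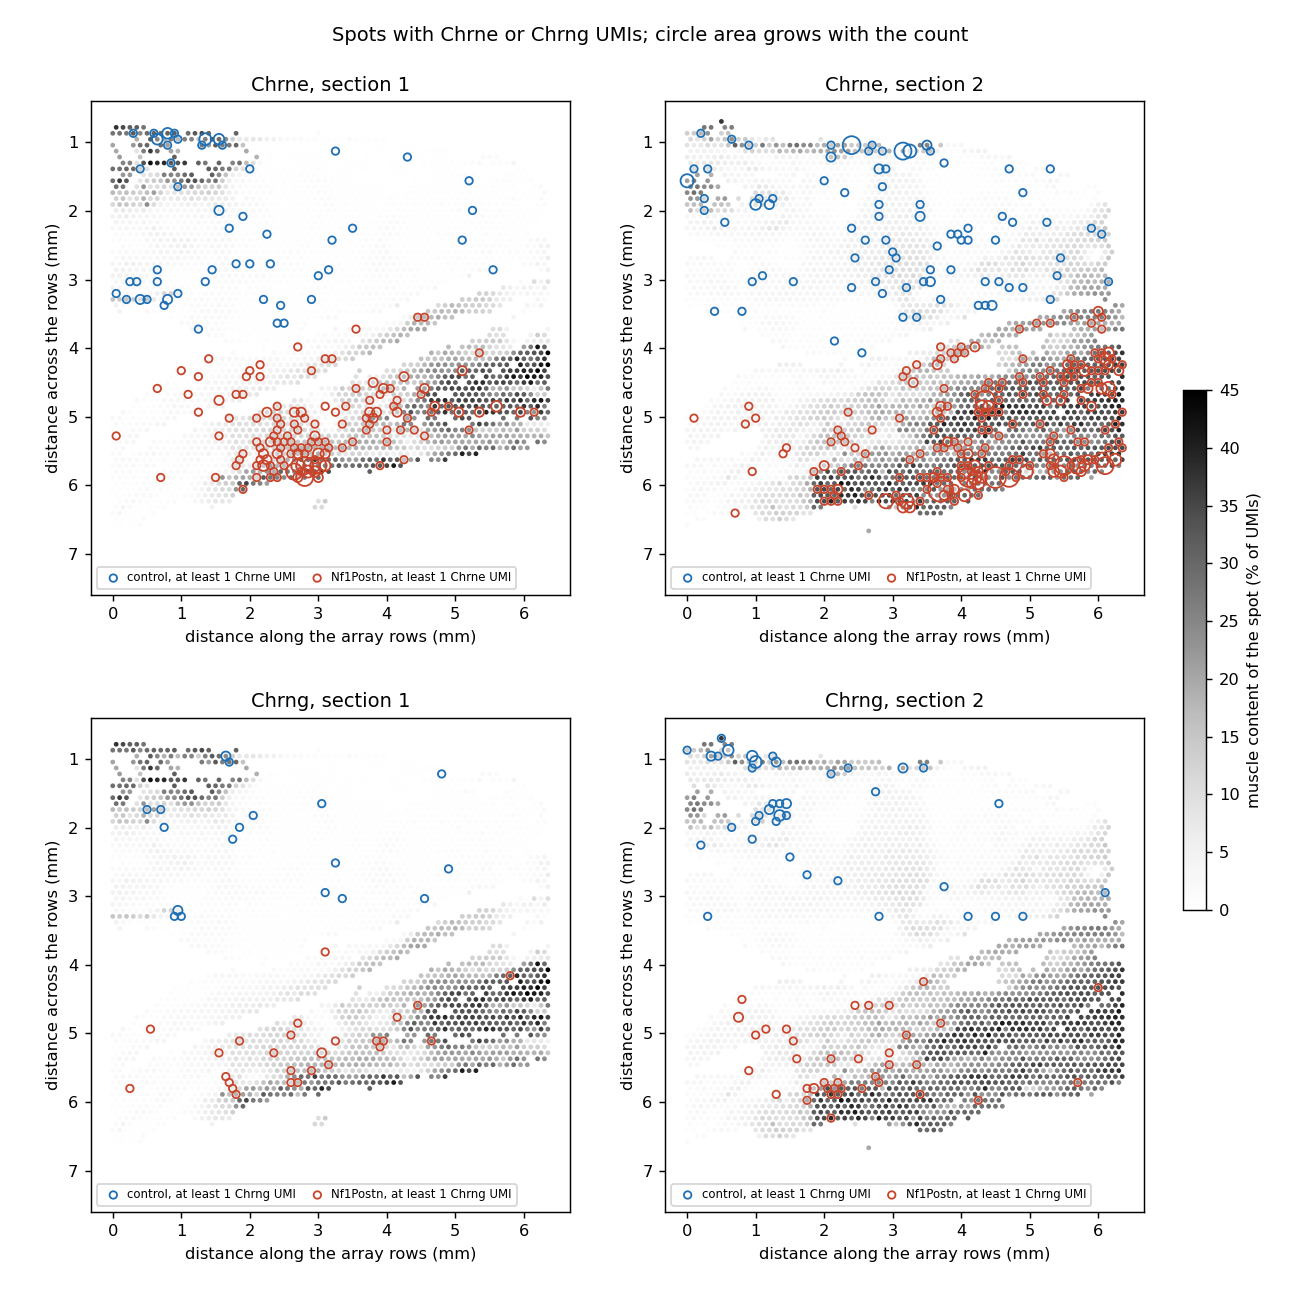
Spots of the capture area with distances in mm on both axes, shaded by muscle content in percent of UMIs, for Chrne (upper row) and Chrng (lower row) in section 1 (left) and section 2 (right). Circles mark spots with at least 1 UMI of the gene, blue for control and red for Nf1Postn, with an area that grows with the count. Chrne circles gather at the lower border of the Nf1Postn muscle, where 11 of 12 and 18 of 32 Chrne-rich spots fell in 5 rows, and Chrng circles are few and small, with at most 4 UMIs.

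The same spots were rich in other synaptic transcripts. Chrne itself chose them and is not counted. Chrna1 was at 366 CPM in the Chrne-rich spots against 43.4 CPM in the other muscle-rich spots of section 1 (8.44-fold, 95% interval 5.51 to 12.6), and at 281 against 37.3 CPM in section 2 (7.53-fold, 5.45 to 10.3). Of the 54 Chrna1 UMIs in the Chrne-rich spots of section 2, 1 control spot gave 17 and another gave 9. Chrnd was at 172 against 20.5 CPM and at 146 against 18.01 CPM (8.40-fold and 8.09-fold). Ache was at 484 against 51.5 CPM and at 463 against 58.7 CPM (9.41-fold and 7.89-fold). The alpha and delta subunits and the esterase thus differed by nearly the same factor, and their ratio intervals lay above 4-fold in both sections.

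The remaining members differed less. Chrnb1 was at 151 against 73.4 CPM and at 161 against 70.6 CPM (2.05-fold and 2.28-fold), and Musk at 118 against 53.4 CPM and at 187 against 58.9 CPM (2.22-fold and 3.18-fold). In section 2, 1 Chrne-rich spot gave 9 Musk UMIs and another gave 8. Scn4a, at 495 against 264 CPM and at 624 against 345 CPM, was 1.88-fold and 1.81-fold higher and did not reach the 2-fold rule. Colq was carried by 11 UMIs, 1 of them in section 1 (10.8 against 7.15 CPM) and 10 in section 2 (52.0 against 5.24 CPM). In section 2 the Colq ratio was 9.93-fold (4.26 to 21.4), but 7 of those 10 UMIs lay in 2 spots. Section 1 was too thin to judge it.

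Chrng was too thinly counted to be placed. It gave 1 UMI in the Chrne-rich spots of section 1 and 4 in section 2 (10.8 against 10.0 CPM and 20.8 against 9.01 CPM), with ratio intervals from 0.026 to 6.68 and from 0.602 to 6.36. In all, 5 of the other 8 members were called higher, beside 1.86% of the 11787 genes tested, and 0 were called lower, beside 0.373%. Within the control alone Chrna1, Chrnd, Ache and Musk were called, on 7 Chrne-rich spots, and within Nf1Postn alone Chrna1, Chrnd and Ache, on 44. No share over all genes is given within a genotype. In the control of section 2, nearly all Musk UMIs of these spots, 9, came from 1 spot.

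Of the 13 synapse genes tested, 3 were higher in Chrne-rich spots. Ufsp1 was at 301 against 30.03 CPM and at 369 against 50.3 CPM (10.0-fold and 7.35-fold), Etv5 at 269 against 44.3 and at 343 against 44.4 CPM (6.07-fold and 7.73-fold), and Erbb3, a receptor for neuregulin, at 96.9 against 17.6 and at 41.6 against 16.8 CPM (5.49-fold and 2.48-fold). Of 8 denervation genes tested, only Ncam1 was higher, at 204 against 52.4 and at 172 against 60.1 CPM (3.90-fold and 2.86-fold). Myog was at 86.1 against 56.7 and at 57.2 against 48.4 CPM. Rapsn, with 1 UMI in each section, and Dok7, with 2 and 4, were not called, at 10.8 and 5.202 CPM against 21.4 and 19.9 CPM and at 21.5 and 20.8 CPM against 24.3 and 20.3 CPM, and these few counts give wide intervals. Agrn was at 64.6 against 41.5 and 20.8 against 31.0 CPM and Lrp4 at 10.8 against 24.8 and 52.0 against 19.1 CPM, on 1 to 10 UMIs. None of the 11 excitation-contraction genes and none of the 22 mature fiber genes was called, and Ryr1 was at 1.20-fold and 1.11-fold.

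Markers of other cell types moved with these spots. Of 8 Schwann cell markers, 6 were called higher, Sox10 among them, and the list's summed level was 936 against 265 CPM in section 1 and 1628 against 477 CPM in section 2, with no marker at 0. The Chrne-rich spots were also deeper, with a median of 5230 UMIs against 2649.75, as a cut on a raw count favors deep spots, while their median muscle content was 26.7% against 22.3%. Macrophage markers were lower there, at 366 against 749 and 359 against 620 CPM, with 0 and 1 of 7 at 0, and so were erythroid markers, at 108 against 860 and 614 against 1637 CPM, with 4 and 2 of 6 at 0. The part of these cells in the result was not tested. For depth, each spot was thinned to 1000 UMIs, which left out 135 of 829 muscle-rich spots in section 1 and 124 of 1276 in section 2. Of the 127 spots that then held a Chrne UMI, 16.5% held Ache (10.5 to 24.2%) against 5.47% of the other 1719 (4.44 to 6.65%). The shares were 14.2% against 3.14% for Chrna1, 7.09% against 1.16% for Chrnd and 8.66% against 4.71% for Musk, whose intervals overlapped. For Scn4a they were 29.1% against 27.2% and for Chrng 0.787% against 0.814%. Without thinning, 33.9% of 319 spots with Chrne held Ache against 13.4% of 1786, and 69.0% held Scn4a against 49.8%. For Chrnb1 they were 8.66% (4.403 to 15.0%) against 5.82% (4.76 to 7.03%) after thinning, with opposite directions in the sections. After thinning, with the sections pooled, intervals with and without Chrne stayed apart for Chrna1, Chrnd and Ache. The gap nearly closed for the sodium channel. By section, the intervals of Ache stayed apart in both. Those of Chrna1 overlapped in section 2 (9.09%, 3.73 to 17.8%, against 3.26%, 2.28 to 4.50%). Those of Chrnd overlapped in section 1 (4%, 0.488 to 13.7%, on 2 spots, against 1.24%, 0.538 to 2.43%).

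**Figure D3:**
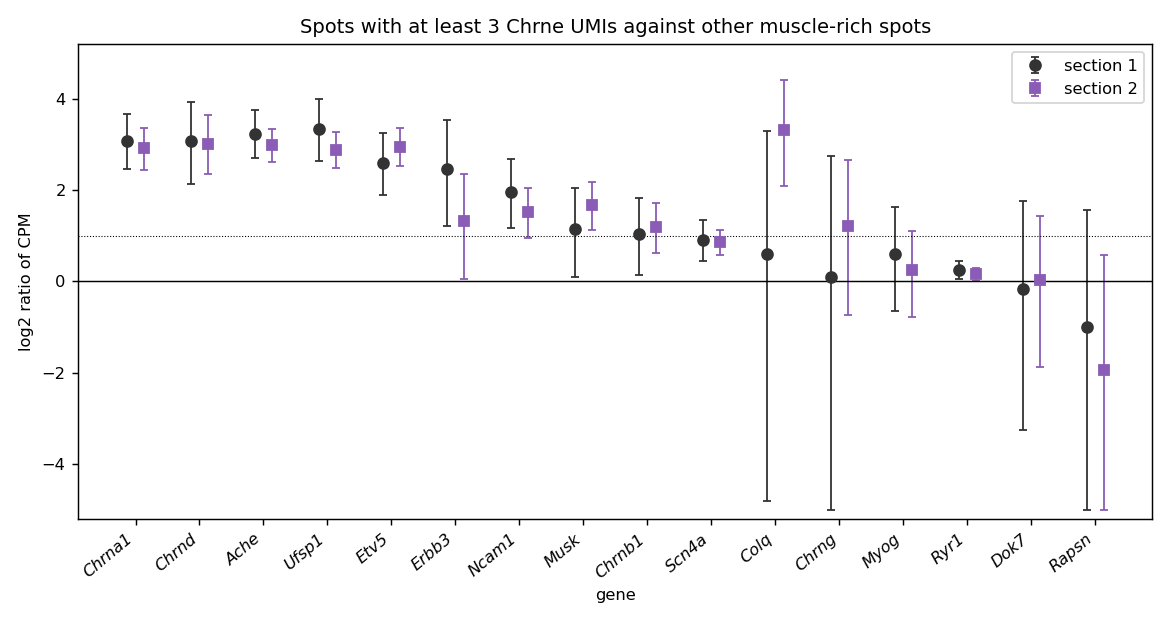
Log2 ratio of the CPM in muscle-rich spots with at least 3 Chrne UMIs over that in other muscle-rich spots, for the other 8 members and chosen synapse, denervation and fiber genes (horizontal axis), in section 1 (circles, 16 against 813 spots) and section 2 (squares, 35 against 1241 spots). Bars are exact 95% conditional intervals, drawn no farther than the axis, the dotted line marks 2-fold, and Chrna1, Chrnd, Ache, Ufsp1 and Etv5 stand together above 6-fold in both sections while Rapsn and Dok7 lie near or below 0.

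Some single spots held many of these transcripts together, and others did not. The spot with most Chrne, in the Nf1Postn muscle of section 2, held 20 Chrne, 9 Ache, 9 Ufsp1, 5 Chrna1 and 3 Colq UMIs among 4774.5 (totals can be fractional because 9 symbols that join several Ensembl IDs hold non-whole values in the tables). A control spot of section 2 held 17 Chrna1, 17 Etv5, 10 Chrne, 9 Ache, 9 Musk, 8 Chrnd and 4 Colq UMIs among 20656.5. Neither held Chrng.

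The bases before Chrne and Chrng are shown because these subunits replace each other in the receptor. Chrng had too few UMIs in the Chrne-rich spots to be set against the other subunits there. Sequences are from RefSeq's promoter table, whose build is GRCm38.p6, and were placed in GRCm39 by a unique exact match of the 250 bases before the start. Of the 9 genes 7 had an entry, all but Chrnd and Colq. The motifs searched on both strands were the N-box, CCGGAA, the site at which ETS-family factors act in synaptic genes, and the E-box CAGCTG, a site of myogenic factors such as myogenin. They do not overlap. Motif letters are in capitals. The Chrne stretch runs from 250 to 106 bases before RefSeq's start on the minus strand and lies upstream of every annotated exon of the gene. Its N-box stretch runs from 88 to 59 bases before that start, which is in the first exon of the longest GENCODE model. The Chrng stretch runs from 250 to 42 bases before the start on the plus strand, outside exons and within the first intron of 1 longer GENCODE transcript.
Chrne, chr11:70510126-70510270: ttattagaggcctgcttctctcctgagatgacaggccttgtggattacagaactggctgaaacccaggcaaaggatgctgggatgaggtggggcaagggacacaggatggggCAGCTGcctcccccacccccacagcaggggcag
Chrne N-box, chr11:70510079-70510108: cccaaacctagcCCGGAActaacaccctcc
Chrng, chr1:87133283-87133491: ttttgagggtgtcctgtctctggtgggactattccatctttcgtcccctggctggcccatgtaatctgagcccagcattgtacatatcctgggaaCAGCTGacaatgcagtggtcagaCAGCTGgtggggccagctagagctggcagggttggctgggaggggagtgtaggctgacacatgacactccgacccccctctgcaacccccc
In the 250 bases, Chrne was the only member of the 7 with an N-box, which 12.03% of the 32851 promoters in the table held, and 1 of 7 is near that share. CAGCTG was present in Chrne, Chrng, Chrna1 and Musk, 4 of 7, beside 4271 of all 32851 promoters, and Chrng and Chrna1 each held it at 2 places. Ache, Chrnb1 and Scn4a held neither motif in this window. The E-box was planned as CANNTG, but only CAGCTG was counted. Other forms, such as CACGTG in Ache and CAGGTG in Chrnb1, are therefore not in these counts. The matches describe letters and not bound sites.

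Between genotypes, Chrne was the only member that differed by the rule within muscle-rich spots. It was measured at 112 CPM (95.6 to 131) in Nf1Postn and 35.7 CPM (23.5 to 51.9) in the control of section 1, and at 97.3 CPM (87.7 to 108) and 42.6 CPM (31.2 to 56.8) in section 2. The genotypes did not overlap in either section, and the ratios were 3.15-fold (2.08 to 4.92) and 2.28-fold (1.68 to 3.17). The count of 1 of 9 members higher stood beside 0.373% of the 11787 genes tested, and 0 of 9 lower beside 0.713%. With 1 mouse per genotype these intervals say nothing of the spread between animals.

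No other subunit was called, and of them only Chrnd was, like Chrne, higher in Nf1Postn in both sections. Chrna1 was at 53.7 and 35.3 CPM in Nf1Postn and at 63.4 and 87.9 CPM in the control of sections 1 and 2, a 1.18-fold and a 2.49-fold lower level. Chrng was at 11.9 CPM against 6.61 in section 1 and at 6.43 against 20.4 CPM in section 2, opposite directions. Chrnb1 was nearly level, at 76.0 and 74.9 CPM against 77.9 and 71.3 CPM, and Chrnd was at 32.1 and 23.9 against 17.2 and 19.4 CPM. The Chrnb1 ratios, 0.975 (0.704 to 1.36) and 1.05 (0.815 to 1.37), leave out a 2-fold difference between these sections' muscle spots, whereas those of Chrnd, 1.87 (0.992 to 3.77) and 1.23 (0.761 to 2.08), do not.

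Of the remaining members, Ache was at 78.8 and 75.9 CPM in Nf1Postn against 52.8 and 68.5 CPM, and Musk at 62.8 and 68.7 against 43.6 and 46.3 CPM, higher in both sections by 1.11-fold to 1.49-fold. Scn4a was lower in section 1, at 255 against 309 CPM, and higher in section 2, at 401 against 193 CPM. Colq, on 2 to 27 UMIs a group, was at 9.76 and 6.95 against 2.64 and 7.40 CPM. The median log2 ratio of the 9 genes was 0.50, against -0.13 over all genes tested. No gene was called in either direction of the 13 synapse, 8 denervation and 11 excitation-contraction genes tested. Myog was at 63.5 and 46.8 CPM in Nf1Postn against 47.6 and 55.5 CPM, Ncam1 at 66.2 and 49.2 against 44.9 and 119 CPM, Trim63 at 146 and 214 against 144 and 75.9 CPM, and Rapsn at 20.2 and 21.4 against 22.5 and 12.03 CPM. Dok7 was at 16.7 and 22.1 against 38.3 and 13.9 CPM, Agrn at 48.8 and 29.3 against 30.4 and 35.2 CPM, and Lrp4 at 27.2 and 19.3 against 18.5 and 24.1 CPM. For the genes of denervation as for the receptor, a difference in section 2 was often absent or reversed in section 1.

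The Chrne difference depended on how muscle was matched. Median muscle content was 18.9% in Nf1Postn and 24.8% in control muscle-rich spots of section 1, but 26.0% and 14.8% in section 2. Counted per 100000 UMIs of the muscle genes instead of all UMIs, Chrne was at 52.1 against 15.2 in section 1 (3.44-fold) and at 36.3 against 24.7 in section 2 (1.47-fold), and 0 members were called, beside 0.127% of genes higher and 1.19% lower. For the 9 genes, no ratio held 2-fold in both sections on it. That scale moved the median log2 ratio of all genes tested from -0.13 to -0.49. In spots with 10 to 20% muscle, Chrne was at 105 against 24.7 CPM in section 1 and at 45.4 against 50.6 CPM in section 2. In spots with 20 to 30% it was at 157 against 49.2 CPM and at 175 against 25.5 CPM, and there Chrnd was called higher too. In spots above that, Chrne was at 76.7 against 33.4 CPM in section 1, while section 2 had only 2 such control spots. Section 2 thus showed the difference in the denser muscle and not in the sparser.

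The Chrne-rich spots made up 1.79% (0.926 to 3.10%) of Nf1Postn and 2.55% (0.698 to 6.39%) of control muscle-rich spots in section 1, and 2.97% (2.04 to 4.16%) and 1.52% (0.315 to 4.39%) in section 2. The cut at 3 UMIs falls at different levels in spots of different depth, so these shares are not comparable per UMI. In the spots below that cut, which were set apart by Chrne itself and give no independent comparison, Chrne was at 69.6 against 19.1 CPM in section 1 (3.65-fold, 2.07 to 6.93) and at 49.8 against 21.2 CPM in section 2 (2.35-fold, 1.51 to 3.84). Schwann cell markers moved with genotype too, 4 of 8 being called higher in Nf1Postn muscle-rich spots, Sox10 and Pmp2 among them, with a summed level of 350 and 597 CPM against 185 and 252 CPM and no marker at 0. Erythroid markers were also higher in Nf1Postn, with a summed level of 1183 and 1765 CPM against 157 and 992 CPM, 2 of the 6 detected markers being at 0 in the control of section 1 and 1 in section 2. Macrophage markers were lower, at 704 and 502 against 789 and 998 CPM. The part of these cells in the Chrne difference was not tested. Where along the fibers each section cut the muscle of each limb is not given, so this place and the genotype cannot be told apart.

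**Figure D4:**
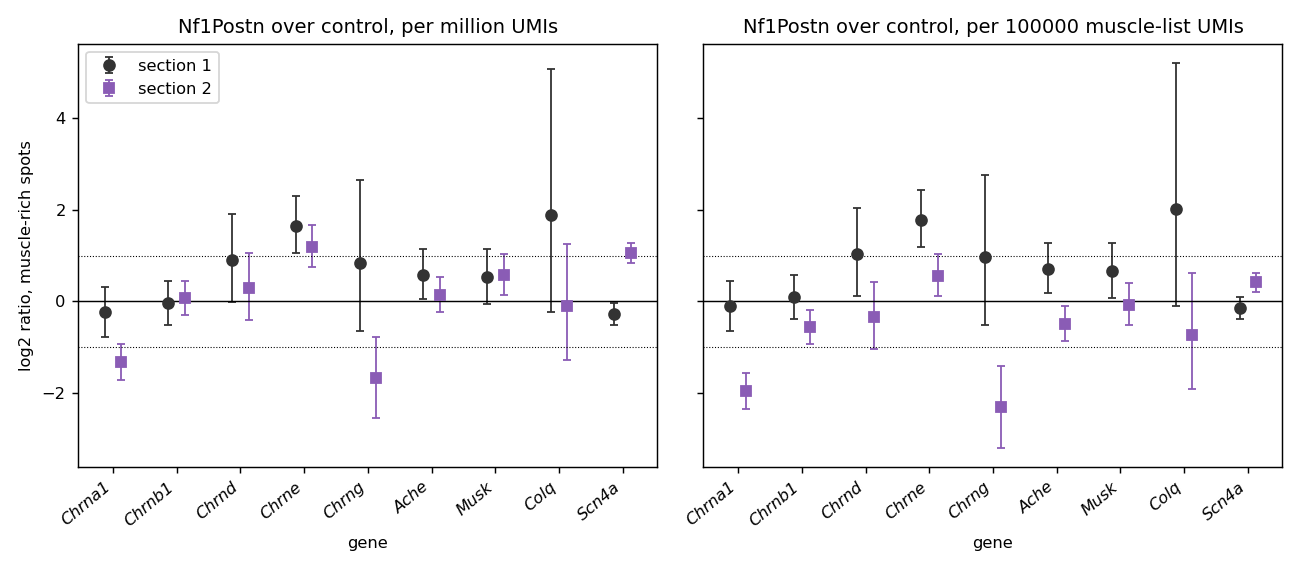
Log2 ratio of each gene in Nf1Postn over control muscle-rich spots, per 1e+06 UMIs (left) and per 100000 UMIs of the muscle genes (right), in section 1 (circles) and section 2 (squares) with exact 95% conditional intervals; dotted lines mark 2-fold each way. Chrne is the only gene past the upper line in both sections on the left, at 3.15-fold and 2.28-fold, and on the right its section 2 point falls to 1.47-fold.

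Chrng had a higher level near embryonic muscle genes, although 78 of its UMIs lay outside such places and 44 within. Few spots held enough counts of these genes to be split one by one, and at 10% of muscle UMIs from embryonic genes only 1 of 4293 spots with at least 2% muscle qualified. The embryonic genes (Myh3, Myh8, Tnnt2, Mymk and Mymx) were therefore summed over each spot and its 6 neighbors, and 363 spots where they reached 0.5% of muscle UMIs were set against the other 3930, a definition chosen after seeing the data. Chrng was at 21.7 CPM in the embryonic neighborhoods and 6.51 CPM elsewhere in section 1 (3.34-fold, 1.24 to 7.76), and at 20.8 and 4.82 CPM in section 2 (4.32-fold, 2.74 to 6.78). With the genotypes pooled, Chrne went the other way, at 34.1 against 51.0 CPM and at 14.1 against 47.0 CPM. In the control alone, and within spots of 2 to 10% muscle, it had no common direction, as given below. Chrng was the only member called, 1 of 9 beside 1.16% of the 14203 genes tested, and 0 were called lower, beside 0.606%.

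The shared subunits lay between. Chrna1 was at 43.4 against 31.2 and at 41.1 against 25.9 CPM, Chrnd at 27.9 against 13.7 and at 21.9 against 14.0 CPM, and Chrnb1 at 55.8 against 43.8 and at 52.3 against 41.9 CPM. Scn4a, at 89.96 against 148 and at 93.4 against 197 CPM, Musk, at 15.5 against 35.1 and at 26.4 against 37.7 CPM, and Ache, at 40.3 against 41.6 and at 36.0 against 40.9 CPM, were at or below the level elsewhere, and Colq gave 6 UMIs. Median muscle content was 4.88% in the embryonic neighborhoods and 10.4% elsewhere, and of the 22 mature fiber genes 7 were called lower and 1, Tnni1 of slow fibers, higher. Within spots of 2 to 10% muscle, where the medians were 3.84% and 4.09%, Chrng was at 27.3 against 3.22 and at 17.8 against 2.74 CPM (8.50-fold and 6.49-fold), Chrna1 at 35.1 against 9.65 and at 31.7 against 10.6 CPM (3.64-fold and 2.99-fold), and Chrnd at 11.7 against 4.02 and at 20.1 against 7.11 CPM (2.91-fold and 2.82-fold). There, 3 of 9 members were higher, and no share over all genes is given at this content. The median log2 ratio of the 9 genes was 0.54, against 0.067 over all genes tested. Chrne, at 35.1 against 19.7 and at 8.49 against 10.6 CPM, had no common direction. Per 100000 muscle UMIs, 4 members were higher (Chrna1, Chrnb1, Chrnd and Chrng), beside 27.3% of all genes, and 0 were lower, beside 0.0352%, so that count carries little.

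Of the denervation genes, Myog was higher in embryonic neighborhoods, at 124 against 35.8 and at 88.9 against 29.2 CPM (3.47-fold and 3.05-fold), and Fbxo32 lower, at 9.31 against 30.6 and at 13.5 against 36.3 CPM. Ncam1 was at 102 against 67.7 and at 90.04 against 65.4 CPM. No gene was called of the 14 synapse and 11 excitation-contraction genes tested. Rapsn gave 0 UMIs in section 1 and 7.88 against 11.0 CPM in section 2, Dok7 was at 9.31 against 14.5 and at 9.004 against 11.7 CPM, Agrn at 65.1 against 57.2 and at 58.0 against 52.8 CPM, and Lrp4 at 6.20 against 47.5 and at 39.95 against 45.6 CPM. Macrophage markers moved with these spots, with a summed level of 1287 and 1258 CPM against 852 and 772 CPM and none of 7 at 0, and Schwann cell markers were lower, at 220 and 184 against 298 and 371 CPM, with none of 8 at 0. Their part was not tested.

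The 2 subunits can also be read against each other, which needs no scaling; the share itself depends on the probes of both genes, and only its difference between groups of spots is read. Embryonic neighborhoods held 44 Chrng and 36 Chrne UMIs, so that Chrng was 55.0% of both (43.5 to 66.2%), whereas the other muscle spots held 78 and 703 (9.99%, 7.97 to 12.3%). The Chrng to Chrne ratio was 1.22 and 0.111, an 11.0-fold difference (6.48 to 18.7). It was 4.98-fold (1.504 to 15.2) in section 1 and 14.4-fold (7.68 to 27.1) in section 2, and 6.19-fold (2.88 to 13.3) in the control and 11.3-fold (4.97 to 25.3) in Nf1Postn, the smallest value being that of section 1. In the control the share was 3 of 4 UMIs in embryonic neighborhoods and 16.3% elsewhere in section 1, and 58.1% and 20.6% in section 2. In Nf1Postn it was 28.6% and 10.2% in section 1 and 63.2% and 6.36% in section 2. The embryonic neighborhoods had the higher share in each of the 4 pairs, although in section 1 the intervals overlapped in both genotypes, on 4 and 14 UMIs. Muscle content differed between the groups, so the share was also read within spots of 2 to 10% muscle. There it was 60% (45.2 to 73.6%) in embryonic neighborhoods against 17.7% (11.6 to 25.4%) elsewhere. In the control it was 69.0% against 14.9%, with intervals apart. In Nf1Postn it was 47.6% (25.7 to 70.2%) against 21.4% (11.6 to 34.4%). The Nf1Postn difference was thus smaller at this content, and its intervals overlapped. By muscle content alone, Chrng was 28.8% of both in spots with 0.5 to 2% muscle, 29.4% with 2 to 10% and 10.1% in muscle-rich spots. In control muscle-rich spots it was 15.6% in section 1 and 32.4% in section 2, and in Nf1Postn 9.55% and 6.20%.

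**Figure D5:**
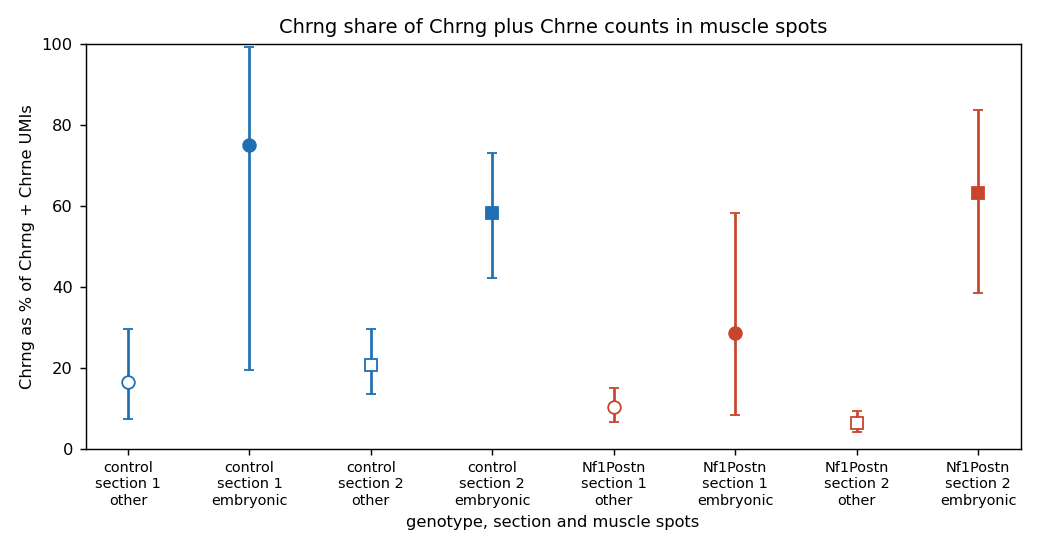
Chrng UMIs as a percentage of Chrng plus Chrne UMIs (vertical axis) in spots with at least 2% muscle, in embryonic neighborhoods (filled) and other muscle spots (open), by genotype and section, with exact 95% binomial intervals. The filled point lies above its open neighbor in all 4 pairs, for example 58.1% against 20.6% in the control of section 2.

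By genotype the members behaved unlike each other in these neighborhoods, and no share over all genes is given within a genotype. Within the control Chrna1 (2.71-fold and 2.33-fold), Chrnd (11.97-fold on 5 UMIs and 2.42-fold) and Chrng (15.3-fold on 3 UMIs and 6.94-fold) were higher, and Chrne was at 17.8 against 17.9 and at 20.02 against 15.5 CPM, on 1 UMI and 18 UMIs in the embryonic neighborhoods. Within Nf1Postn none was called higher, Chrng being at 15.0 against 9.47 CPM on 4 UMIs (1.59-fold) and at 13.7 against 5.81 CPM (2.35-fold), and Chrne, at 37.6 against 83.5 and at 7.97 against 85.6 CPM, and Scn4a, at 82.7 against 171 and at 122 against 346 CPM, were lower. Fiber genes fell there too. In Nf1Postn, 14 of the 22 mature fiber genes were called lower and 1 higher, and 5 of 11 excitation-contraction genes lower and 0 higher. In the control 0 of either list were called lower. In Nf1Postn, muscle content differed more between these groups, with medians of 5.89% against 17.98%, than in the control, with 3.65% against 4.63%, and whether the genotypes differ was not tested.

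In muscle-poor spots the 9 genes were barely detected. The 188 muscle-poor spots gave 32 member UMIs in all, most from Chrnb1 and Scn4a, and no member could be tested in spots rich in markers of other tissues there. In all spots with under 2% muscle, Chrnb1 was higher in tendon-marker-rich spots, at 14.7 against 5.47 CPM (2.69-fold, on 24 UMIs), beside 0.874% of genes. Chrnb1 was lower in osteoclast-marker-rich spots, on 10 UMIs, beside 3.15%. Ache was higher in erythroid-rich spots, at 50.4 against 4.19 CPM on 4 UMIs, beside 3.1%, and in granulocyte-rich spots, at 10.4 against 4.23 CPM on 5 UMIs, beside 2.75%. No other call was made among all the marker lists and members compared at this limit. Red cells are known to carry acetylcholinesterase on their surface, but the counts are too few for more than a mention.

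Over 243 square tiles of the array, the genes whose log2(CPM + 1) followed each member most closely were mostly genes known from muscle fibers. Scn4a was closest to the fiber genes Eef1a2 (Pearson r = 0.89), Eno3 and Ttn, Ache to Ank1, Klhl31 and Rbm24 (0.65), Musk to Ryr1 and Rsrp1, and Chrnb1 to Pdlim3, Trim72 and Prkag3. Chrne was closest to Mylk2 (0.64), Pfkm and Myh4, genes of fast fibers, and Chrna1 to Dupd1 (0.59), Des and Myh1. Chrnd was the only member whose closest gene was another of the 9, Musk (0.49). Tiles share depth and muscle content, which all these genes follow, and Chrng and Colq had too few UMIs to be placed.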

How the data were processed

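Spatial gene expression was measured with the 10x Visium assay for fixed tissue, in which pairs of probes per gene are ligated on mouse transcripts, on 2 sections of a block decalcified for 3 days in 14% EDTA. According to the study's methods and the submitters' processing notes, the authors processed the reads with Space Ranger 1.3.0 on mm39 and exported them from Partek Flow. The deposited tables hold UMI counts per gene and spot, not normalized, and were treated as estimated counts because 9 symbols joining several Ensembl IDs have non-whole values; no rounding was applied, since only sums and ratios were computed. Genotype labels are those the authors deposited for each spot, the calluses having been embedded in different orientations to tell them apart; the rule by which single spots were labelled is not given in the sources used here. Of 6380 spots, 5 without a genotype were left out. Entries naming no gene held 6.81e-05% and 3.76e-05% of UMIs.

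The 9 genes and all gene lists were chosen with earlier results of these data known. Counts were summed over the spots of a group. With 1 mouse per genotype no test was made, and a gene was called at 2-fold the same way in both sections with at least 20 UMIs, values under 3 UMIs on the lower side being set to 3. For co-detection, spots were thinned to 1000 UMIs. Tiles were 8 array positions wide with at least 10 spots. Genes other than the 9 were named from the synapse, denervation and excitation-contraction lists, and, for likeness over tiles, as the 3 with the highest r; a few listed genes are not reported by name here. Alternatives were leaving out a section, TMM factors (edgeR 4.0.16), means of log2(CPM + 1) over spots with a pseudocount of 1, other minimum counts, other limits of muscle content and scaling to muscle UMIs. Python 3.11.15 with numpy 2.4.6, pandas 2.3.3, scipy 1.17.1 and matplotlib 3.10.9 was used, and the ratio and calling steps were tested on simulated data. Probe counts are open to unequal capture and to cross-hybridisation between related genes, and thin or decalcified tissue lowers depth.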

Additional observations from a re-analysis of the deposited data

Results flagged for a closer look

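In embryonic neighborhoods, the ratio of Chrnb1, the beta subunit, differed in sign between the genotypes, although it was nearly level in Nf1Postn. Pooled over sections, its log2 ratio to other muscle spots was 0.81 in the control, positive in both sections, and -0.0798 in Nf1Postn, negative in both. Ache, the esterase, also differed in sign, with a log2 ratio of 0.50 in the control and -0.60 in Nf1Postn. The difference between genotypes was not tested, there being 1 mouse of each, and the control neighborhoods of section 1 held only 8 Chrnb1 and 2 Ache UMIs. Muscle content differed more between the compared spots in Nf1Postn than in the control, and its part was not tested.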

How the results depend on the processing

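Among counts and summary values recomputed under an alternative, 136 stayed within 1.5 times the reported count or within the reported interval and 39 did not; among values of single genes 259 stayed within their interval, 109 left it and 1, given below, turned, and no ratio of a called member changed sign under the alternatives run. Between muscle-rich and muscle-poor spots, 6 members higher became 3 with means of log2(CPM + 1) over spots and 0 with limits of 20% and 0.25% muscle, which leave fewer spots. Leaving out either section gave 6 to 8 members, 4 to 6 synapse genes higher and 2 to 4 lower (1 lower with TMM factors), and 1 to 2 denervation genes lower. With a section left out, the 2-fold difference is needed in the remaining section only, so calls of any gene can rise. No share over all genes is given here for the alternatives, so their counts cannot be set against all genes. Between genotypes, 1 member higher (Chrne) became 0 with means over spots, 0 per 100000 muscle UMIs, 3 with spots of at least 2% muscle, and 0, 2 and 0 within 10 to 20%, 20 to 30% and over 30% muscle, bins chosen after seeing the data. Leaving out a section gave 1 to 2 members higher, 0 to 2 lower, 0 to 1 synapse genes higher, 1 lower either way, and 0 to 1 denervation genes higher and 1 to 2 lower, against 0 for each with both sections. Without section 1 the calls rest on section 2 alone, in which control muscle was sparser. For embryonic neighborhoods, 1 member higher (Chrng) became 0 with means over spots, 4 per 100000 muscle UMIs, 3 with a split at 1% and 3 within 2 to 10% muscle, the last 2 chosen after seeing the data. Leaving out a section gave 1 to 2 members higher and 1 to 2 lower, 0 to 4 synapse genes lower, and 0 to 2 excitation-contraction genes lower (1 with TMM factors). The log2 ratio of Chrng to Chrne between these spots, 3.46, ranged from 2.32 to 3.85 on leaving out a section, and was 5.41 with the split at 1% and 2.63 in the control alone. Beside Chrne-rich spots, 5 other members became 3 in Nf1Postn alone. Thinning to 1000 UMIs lowered the gap in Ache co-detection from 20.5 to 11.1 percentage points, turned that of Chrng from 3.03 to -0.027, and lowered the share of spots with a Chrne UMI from 3.88% to 0.985% in the control and from 11.6% to 5.06% in Nf1Postn. In tissue-marker-rich spots, 0 calls became 3 higher and 1 lower on widening from 0.5% to 2% muscle. Causes not given here were not tested. No paired analysis was possible because the replicates are 2 sections in 1 group that each hold both genotypes, and comparisons were made within each section. Depth limits Colq, Chrng and every statement on muscle-poor spots of section 2.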

Other observations

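Beyond the lists, the genes with the highest ratios in Chrne-rich against other muscle-rich spots, picked after their values were seen and with no test, included Crym (14.1-fold and 14.9-fold in sections 1 and 2, on 14 UMIs), Pdzrn4 (15.1-fold and 10.2-fold), Col20a1 (13.2-fold and 10.9-fold) and Kcne1l (18.9-fold and 9.44-fold). Prkar1a, the regulatory subunit of protein kinase A, was the best counted among them, at 4.26-fold and 5.39-fold on 724 UMIs in 51 spots. Genes of myelinating Schwann cells, Fa2h and Cldn19 among them, were also in this group.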
